A study of Homo sapiens with 6 samples.

Results

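The SLC25 family comprises the carriers that move metabolites across the inner mitochondrial membrane. All protein-coding rows of the deposited gene table whose symbol is SLC25A followed by a number were taken, which gave 48 genes among 58735. The rule for membership used names only and no measured value, but it was chosen with earlier results of these data known. The cells were HT1080, a long-established line from a human fibrosarcoma, kept in DMEM with fetal bovine serum. There were 3 libraries of cells with GPR56 (an adhesion-type G protein-coupled receptor encoded by ADGRG1) knocked out by CRISPR-Cas9, called KO, and 3 libraries of wild-type cells, called WT. The sample descriptions carry the solvent name DMSO for both genotypes, with no dose or time. Knockout lines are named in the plural, but the labels state neither how many clones entered the libraries nor whether libraries of 1 genotype came from separate cultures, so the tests measure the spread between these libraries, which may be technical.

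Carriers of this family share a fold built from repeated pairs of membrane helices and work as exchangers or uniporters, each with its own substrates. They supply the matrix with ADP, phosphate, amino acids, cofactors and iron, and release ATP, citrate and other products to the cytosol. A few members lie in the outer mitochondrial membrane or in peroxisomes. In tumour cells the family links glycolysis, lipid synthesis, nucleotide supply, heme formation and glutathione to the respiratory chain.

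ADGRG1 averaged 2.60 ± 0.07 FPKM in KO and 6.51 ± 0.41 FPKM in WT (SD, n = 3 each). FPKM are reads scaled by gene length and by a factor for each library. That factor, over the median ratio of a library's gene reads to their geometric mean over libraries, was 0.997 to 1.003. Whole reads recovered from the table summed to 16955111 to 17276269 in the KO libraries and 16410352 to 16461752 in the WT libraries. Of 9 mesenchymal markers all but THY1, at 0.050 FPKM in KO and 0.0067 FPKM in WT, were expressed. The summed level of the 5 epithelial markers was 0.90 to 0.93 FPKM in KO and 0.29 to 0.40 FPKM in WT, with CDH1 and GRHL2 at 0 reads. The 5 leukocyte markers summed to at most 0.49 FPKM in KO and at most 0.15 FPKM in WT, with PTPRC at 0 reads. The 4 endothelial markers summed to 1.497 to 1.81 FPKM in KO and 0.59 to 0.62 FPKM in WT, and their part in the results was not tested. The 4 hepatocyte markers and the 5 brown adipocyte and muscle markers summed to at most 0.69 FPKM and at most 0.22 FPKM in any library. The libraries also differed in a trend with base composition. When each library's values were taken relative to the mean of the 6, their Spearman correlation with transcript GC content, over genes, reached 0.47, 0.45 and 0.23 for KO and −0.40, −0.63 and −0.02 for WT.

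Of the 48 carriers, 33 had a mean of at least 1 FPKM over the 6 libraries and were tested with limma on log2(FPKM + 1), fitted over 12000 genes. Past an adjusted p of 0.05 (Benjamini-Hochberg over all tested genes, two-sided), 9 were higher in KO, 4 were lower and 20 did not pass. Among all tested genes 21.0% were higher and 22.4% lower in KO. For the carriers the shares were 27.3% and 12.1%, which were not tested against the background. In bulk RNA, fewer cells of a kind and less RNA per cell cannot be told apart. The median log2 fold change, KO minus WT, was 0.06 for the tested carriers and −0.01 for all tested genes. The median size of the difference, whatever its sign, was 0.21 for the carriers and 0.24 for all tested genes. All KO libraries lay above all WT libraries for 12 carriers and below them for 6, shares to be read beside 26.4% and 28.3% of all tested genes. All 13 called carriers were among these.

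**Figure D1:**
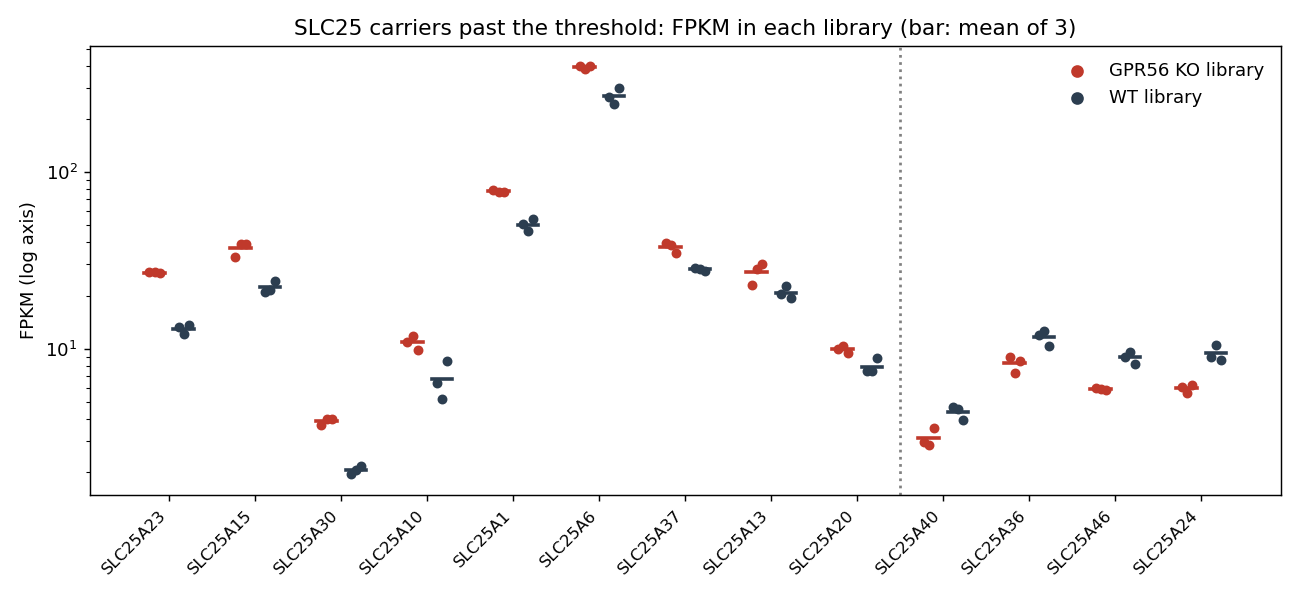
FPKM on a log axis for the 13 SLC25 carriers past the threshold, with KO libraries in red to the left of WT libraries in dark blue and a bar at the mean of 3. SLC25A23 stands at 26.8 to 27.1 FPKM in KO and 12.1 to 13.6 FPKM in WT, and the libraries of the genotypes do not overlap for any of the 13 genes.

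The carriers of ATP-Mg and phosphate, mostly calcium-regulated proteins that adjust the adenine nucleotide pool of the matrix, had 1 higher, 1 lower and 1 not past among 3 tested. SLC25A23 (ENSG00000125648, chromosome 19, positions 6436079 to 6465203 on GRCh38) had 27.03, 27.14 and 26.80 FPKM in the KO libraries, against 13.3, 12.1 and 13.6 FPKM in the WT libraries. Every KO library was about the same and far above every WT library. The KO to WT ratio of means was 2.08, and the log2 fold change was 1.003 (SE 0.06, limma adjusted p = 5.50e-05), the largest increase among the tested carriers in the deposited values. With GC and length corrected, SLC25A30 stood slightly higher, at 0.86. The 265 other tested genes within 10 Mb of it had a median log2 fold change of 0.21, and of 0.02 after a correction for GC content and length, under which SLC25A23 stood at 0.85. SLC25A24 (ENSG00000085491, chromosome 1, positions 108134036 to 108200849) had 6.10, 5.60 and 6.19 FPKM in KO, against 8.998, 10.5 and 8.68 FPKM in WT. Its log2 fold change was −0.58 (SE 0.08, limma adjusted p = 0.00171), the largest decrease among the tested carriers. The 86 other tested genes within 10 Mb of SLC25A24 had a median log2 fold change of −0.04, and of 0.06 with the correction. SLC25A25 averaged 3.86 ± 0.26 FPKM in KO and 4.16 ± 0.10 FPKM in WT (SD, n = 3 each) and did not pass. The ratio of SLC25A23 to SLC25A24 was 4.43, 4.85 and 4.33 in KO and 1.47, 1.15 and 1.57 in WT. SLC25A23 made up 73.0 ± 0.3% of the FPKM of these carriers in KO and 48.9 ± 3.2% in WT, and SLC25A24 made up 16.1 ± 0.9% in KO and 35.4 ± 3.5% in WT. SLC25A41, the remaining member, had 12 reads over the KO libraries and 1 read over the WT libraries.

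The promoters of this pair are shown because SLC25A23 rose and SLC25A24 fell. Each sequence runs from 250 bases before to 50 bases after the RefSeq start on GRCh38.p14, in the direction of the gene, with matches to the searched motifs in capitals. SLC25A23 lies on the minus strand (chr19:6459743-6460042) and SLC25A24 also on the minus strand (chr1:108200294-108200593). The RefSeq starts of SLC25A23 and SLC25A24 lie inside the annotated spans of these genes, as do those of SLC25A1 and SLC25A46, shown further below. The last 40 bases of the SLC25A23 window matched 0 GENCODE transcripts of the gene in either direction.
SLC25A23: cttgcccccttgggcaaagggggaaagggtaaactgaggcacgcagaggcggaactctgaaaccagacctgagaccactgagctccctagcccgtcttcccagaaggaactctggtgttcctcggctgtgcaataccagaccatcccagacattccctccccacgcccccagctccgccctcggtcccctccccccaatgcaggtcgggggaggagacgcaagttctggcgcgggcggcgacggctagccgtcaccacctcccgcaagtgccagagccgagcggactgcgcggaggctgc
SLC25A24: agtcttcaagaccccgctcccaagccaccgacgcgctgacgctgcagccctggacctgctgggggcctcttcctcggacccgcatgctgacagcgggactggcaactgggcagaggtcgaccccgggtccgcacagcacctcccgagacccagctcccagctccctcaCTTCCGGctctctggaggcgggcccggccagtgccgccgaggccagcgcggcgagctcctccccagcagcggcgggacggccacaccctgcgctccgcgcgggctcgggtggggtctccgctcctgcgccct
The motifs searched on both strands were the NRF1 element (found here as GCGCCTGCGC, with any base allowed at the fifth position), the C/EBP-ATF response element TGATGNAA, the E-box CACGTG, the ETS core CCGGAAG and the sterol regulatory element TCACNCCAC. The SLC25A23 window held none of them, and the SLC25A24 window held 1 ETS core, which starts 82 bases before the RefSeq start. The ETS core occurred in 10.3% of all 35116 promoters of the table and in 8 of the 40 carrier promoters in it. All entries of that table were counted, but each carrier only once, so these shares are not like for like and were not tested. The E-box occurred in 7.26% of all promoters and in 7 of the 40. The NRF1 element occurred in 5.78% and in 5 of the 40. The C/EBP-ATF element occurred in 3.62% and the sterol element in 1.13%, each in 1 of the 40. The E-box reads the same on both strands, and no match overlapped a match of another motif in a carrier promoter.

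The ADP/ATP carriers, which exchange matrix ATP for cytosolic ADP and feed oxidative phosphorylation, held most of the family's FPKM. They summed to 727.0, 733.4 and 739.1 FPKM in KO and to 555.8, 522.4 and 621.7 FPKM in WT. That was 58.9 ± 0.4% of the FPKM of all 48 genes in KO and 56.9 ± 1.8% in WT. SLC25A6 (ENSG00000169100, chromosome X, positions 1386152 to 1392724) rose to 396.6, 381.4 and 397.2 FPKM in KO, against 265.1, 243.1 and 298.4 FPKM in WT (log2 fold change 0.55, SE 0.09, limma adjusted p = 0.00251). SLC25A5 (ENSG00000005022, chromosome X, positions 119468400 to 119471319) had 322.6, 344.1 and 334.6 FPKM in KO and 283.2, 272.5 and 314.5 FPKM in WT. The KO libraries of SLC25A5 lay above the WT libraries, but the test was not passed (log2 fold change 0.20, SE 0.08, limma adjusted p = 0.0637). On recovered reads limma-voom did call it (adjusted p = 0.033), and leaving out WT 3 gave an adjusted p of 0.0219. SLC25A4, the form typical of heart and skeletal muscle, averaged 7.60 ± 0.26 FPKM in KO and 7.71 ± 0.99 FPKM in WT and did not pass. SLC25A31, known from testis, had 1 read over the KO libraries and 0 reads over the WT libraries.
The balance between the abundant forms differed by library group. SLC25A6 made up 54.6, 52.0 and 53.7% of ADP/ATP carrier FPKM in KO and 47.7, 46.5 and 48.0% in WT. SLC25A5 made up 44.4, 46.9 and 45.3% in KO and 50.9, 52.2 and 50.6% in WT. In every KO library SLC25A6 was the more abundant, and in every WT library SLC25A5 was. GC content was 64.2% for SLC25A6 and 50.9% for SLC25A5, and after the GC and length correction the log2 fold changes were 0.31 and 0.12.

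**Figure D2:**
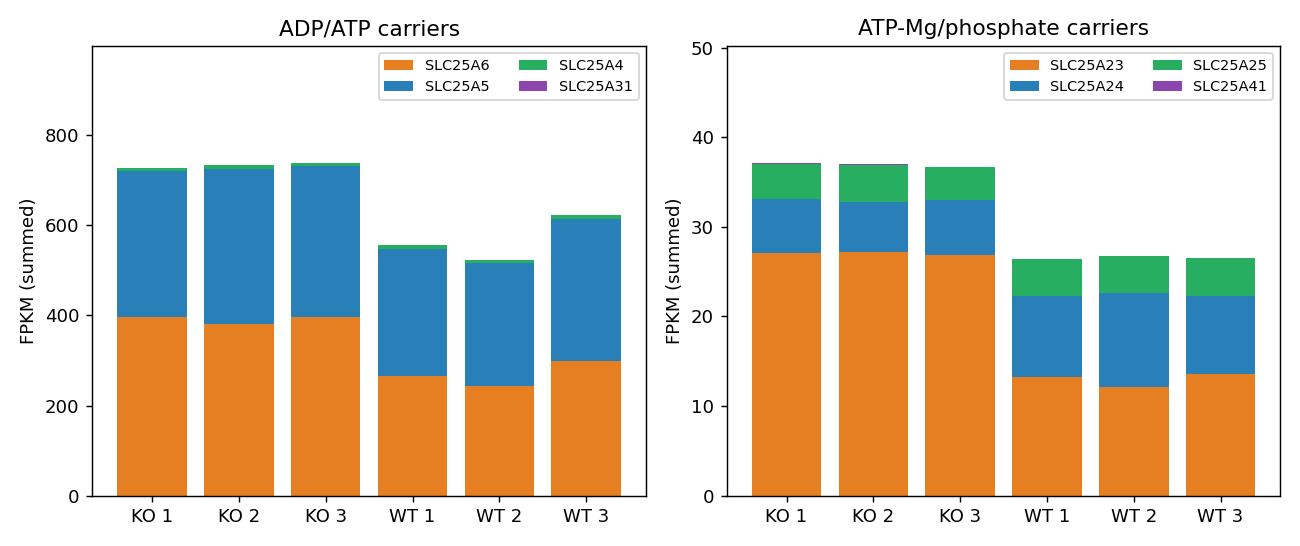
Stacked FPKM in each library, KO libraries left of WT libraries, for the ADP/ATP carriers (left panel) and the ATP-Mg/phosphate carriers (right panel). The right panel shows the SLC25A23 part at 73.0% on average in KO and 48.9% in WT.

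Of 4 tested carriers of carboxylates and phosphate, 2 were higher in KO and 0 lower. SLC25A1 (ENSG00000100075, chromosome 22, positions 19175575 to 19178830), the citrate carrier that exports the carbon used for cytosolic acetyl-CoA and lipid synthesis, had 79.1, 76.9 and 77.2 FPKM in KO and 50.6, 46.2 and 54.6 FPKM in WT. The KO libraries were close together and all above WT (log2 fold change 0.62, SE 0.07, limma adjusted p = 0.000737). With GC and length corrected it was still called, at 0.37. SLC25A10 (ENSG00000183048, chromosome 17, positions 81712236 to 81721016), which exchanges dicarboxylates such as malate and succinate for phosphate, had 10.9, 11.8 and 9.88 FPKM in KO and 6.43, 5.18 and 8.56 FPKM in WT. The WT libraries were widely spread (log2 fold change 0.64, SE 0.15, limma adjusted p = 0.0136), and without KO 2 the adjusted p was 0.0502. With GC and length corrected the log2 fold change was 0.40 (limma adjusted p = 0.0193). Of its exonic bases 46.6% are shared with AC139530.2 on the same strand, a gene with 0 FPKM. SLC25A3, the phosphate carrier, had 60.7, 67.2 and 73.8 FPKM in KO and 60.7, 68.1 and 58.9 FPKM in WT, with overlapping groups (log2 fold change 0.10, SE 0.09, limma adjusted p = 0.418). SLC25A11, the oxoglutarate/malate carrier, averaged 27.02 ± 0.78 FPKM in KO and 26.0 ± 2.7 FPKM in WT (limma adjusted p = 0.601). Its log2 fold change was 0.06 as deposited and −0.15 with GC and length corrected (limma adjusted p = 0.0342), so its direction turned with the correction. Of the exonic bases of SLC25A11 9.14% overlap RNF167 on the opposite strand, whose mean was 37.6 FPKM. SLC25A21, an oxoadipate carrier, had 33 reads over KO and 43 reads over WT.
The SLC25A1 promoter is shown as a GC-rich window of a carrier that rose (minus strand, chr22:19178687-19178986).
SLC25A1: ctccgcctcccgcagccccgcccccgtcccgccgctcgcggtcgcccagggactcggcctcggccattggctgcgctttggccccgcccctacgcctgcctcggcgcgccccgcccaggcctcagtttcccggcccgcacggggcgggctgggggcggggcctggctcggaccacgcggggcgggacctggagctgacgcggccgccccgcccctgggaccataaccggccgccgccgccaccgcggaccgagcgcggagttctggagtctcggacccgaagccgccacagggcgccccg
It held none of the searched motifs, the sterol regulatory element included, and its GC content was 80.3%.

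Of 9 amino acid carriers 7 were tested, and the test was passed by 2, both higher in KO. SLC25A15 (ENSG00000102743, chromosome 13, positions 40789412 to 40810111), the ornithine/citrulline exchanger of the urea cycle, had 32.9, 39.1 and 38.9 FPKM in KO, against 21.0, 21.5 and 24.3 FPKM in WT. The lowest KO library stood well above the highest WT library (log2 fold change 0.71, SE 0.09, limma adjusted p = 0.000996). SLC25A13 (ENSG00000004864, chromosome 7, positions 96120220 to 96322147), the aspartate/glutamate carrier citrin of the malate-aspartate shuttle, had 22.9, 28.4 and 30.3 FPKM in KO and 20.4, 22.6 and 19.4 FPKM in WT. KO 1 lay just above WT 2 (log2 fold change 0.37, SE 0.11, limma adjusted p = 0.0315). The call was lost without any 1 of KO 2, KO 3, WT 1 and WT 3 (adjusted p of 0.103, 0.0908, 0.0917 and 0.0802). SLC25A12, its close relative aralar, had 6.35, 6.29 and 6.70 FPKM in KO and 6.11, 7.32 and 6.13 FPKM in WT and did not pass (log2 fold change −0.01, SE 0.08, limma adjusted p = 0.93). The ratio of SLC25A13 to SLC25A12 was 3.61, 4.52 and 4.52 in KO and 3.33, 3.08 and 3.16 in WT.
SLC25A29, a carrier of basic amino acids, averaged 5.26 ± 0.61 FPKM in KO and 3.88 ± 0.71 FPKM in WT (SD, n = 3 each). All KO libraries lay above all WT libraries, and the log2 fold change was 0.37 (SE 0.13, limma adjusted p = 0.05005). Limma-voom (adjusted p = 0.0157) and the fits without KO 3 (0.0441) and without WT 3 (0.0400) called it higher, while with GC and length corrected the log2 fold change was 0.17 (limma adjusted p = 0.133). SLC25A38, a glycine carrier needed for heme synthesis, had 19.8, 22.0 and 22.7 FPKM in KO and 19.2, 20.3 and 18.0 FPKM in WT (log2 fold change 0.16, SE 0.07, limma adjusted p = 0.131). SLC25A44, a branched-chain amino acid carrier, averaged 9.36 ± 0.52 FPKM in KO and 8.62 ± 0.26 FPKM in WT, without a call. SLC25A22, a glutamate carrier, averaged 23.4 ± 0.1 FPKM in KO and 24.0 ± 2.4 FPKM in WT and did not pass (limma adjusted p = 0.799). After the GC and length correction it was called lower (log2 fold change −0.23, adjusted p = 0.00406). SLC25A18, the other glutamate carrier, had 88 reads over KO and 49 reads over WT. SLC25A2, an ornithine carrier, had 0 reads in every library.

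Among the members similar to uncoupling proteins, SLC25A30 (ENSG00000174032, chromosome 13, positions 45393316 to 45418455), first described in kidney, rose to 3.71, 4.01 and 3.998 FPKM in KO, against 1.94, 2.05 and 2.17 FPKM in WT. The groups were tight and far apart, with a ratio of means of 1.90 (log2 fold change 0.68, SE 0.07, limma adjusted p = 0.000414). SLC25A14 averaged 2.85 ± 0.10 FPKM in KO and 3.44 ± 0.29 FPKM in WT, with all KO libraries below all WT libraries (log2 fold change −0.21, SE 0.07, limma adjusted p = 0.0592). SLC25A27 had 83 reads over KO and 97 reads over WT. The uncoupling proteins proper belong to the same family under other symbols. UCP2 had 0 reads in all 6 libraries, UCP1 0 reads over KO and 1 read over WT, and UCP3 22 and 24 reads.
SLC25A15 and SLC25A30 both lie on chromosome 13. The 68 and 76 other tested genes within 10 Mb of them had median log2 fold changes of 0.15 and 0.17, and of 0.38 and 0.36 after the GC and length correction. For SLC25A15 the corrected log2 fold change was 0.58 (adjusted p = 0.00154) and for SLC25A30 it was 0.86 (adjusted p = 0.000269). The part of these neighbourhoods in the results was not tested.

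The iron carriers, the mitoferrins, bring iron into the matrix for heme and iron-sulfur clusters. With the glutathione carriers they made 4 tested genes, of which 1 was higher, 1 lower and 2 not past. SLC25A37, mitoferrin 1 (ENSG00000147454, chromosome 8, positions 23528805 to 23575463), had 39.7, 38.9 and 35.0 FPKM in KO, against 28.6, 28.1 and 27.6 FPKM in WT. The groups did not overlap (log2 fold change 0.41, SE 0.07, limma adjusted p = 0.00249). SLC25A28, mitoferrin 2, had 9.73, 9.54 and 8.24 FPKM in KO and 9.19, 8.63 and 9.97 FPKM in WT, with overlapping groups (log2 fold change −0.01, SE 0.08, limma adjusted p = 0.909). The ratio of SLC25A37 to SLC25A28 was 4.08, 4.07 and 4.25 in KO and 3.11, 3.26 and 2.77 in WT.
The glutathione carriers import glutathione made in the cytosol. SLC25A39, the more abundant, had 39.1, 38.2 and 35.0 FPKM in KO and 32.1, 27.7 and 35.0 FPKM in WT, and it did not pass (log2 fold change 0.24, SE 0.09, limma adjusted p = 0.0739). Limma-voom on recovered reads called it higher (adjusted p = 0.0392), as did the fit without WT 3 (adjusted p = 0.027), while with GC and length corrected its log2 fold change was 0.02 (limma adjusted p = 0.818). SLC25A40 (ENSG00000075303, chromosome 7, positions 87833568 to 87876357) had 2.96, 2.84 and 3.54 FPKM in KO and 4.69, 4.53 and 3.95 FPKM in WT (log2 fold change −0.39, SE 0.09, limma adjusted p = 0.0127). The call was lost without WT 1 (adjusted p = 0.0527). With GC and length corrected, the log2 fold change was 0.05 (limma adjusted p = 0.526). The 43 other tested genes within 10 Mb of SLC25A40 had a median log2 fold change of −0.37, and of −0.10 with the correction. Of the exonic bases of SLC25A40 2.79% overlap DBF4 on the opposite strand, whose mean was 9.13 FPKM.

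Carriers of cofactors, pyrimidine nucleotides and acylcarnitines had 1 higher, 1 lower and 6 not past among 8 tested. SLC25A20 (ENSG00000178537, chromosome 3, positions 48856931 to 48898993), the carnitine/acylcarnitine carrier of fatty acid oxidation, had 9.97, 10.4 and 9.45 FPKM in KO, against 7.48, 7.46 and 8.83 FPKM in WT. The lowest KO library lay a little above WT 3 (log2 fold change 0.30, SE 0.08, limma adjusted p = 0.02). The call was lost without any 1 of KO 1, KO 2, WT 1 and WT 2 (adjusted p of 0.0567, 0.0767, 0.0789 and 0.0531). SLC25A36 (ENSG00000114120, chromosome 3, positions 140941830 to 140980961), a pyrimidine nucleotide carrier, had 8.97, 7.29 and 8.49 FPKM in KO and 11.9, 12.6 and 10.3 FPKM in WT. It was lower in KO (log2 fold change −0.45, SE 0.10, limma adjusted p = 0.00944), while after the GC and length correction the log2 fold change was −0.14 (adjusted p = 0.127). Its relative SLC25A33 averaged 7.68 ± 0.88 FPKM in KO and 7.46 ± 0.33 FPKM in WT and did not pass. The 67 other tested genes within 10 Mb of SLC25A36 had a median log2 fold change of −0.15, and of 0.03 with the correction.
SLC25A51, the NAD carrier, had 3.53, 3.61 and 4.02 FPKM in KO and 4.85, 4.51 and 3.70 FPKM in WT, with overlapping groups (log2 fold change −0.18, SE 0.10, limma adjusted p = 0.182). Without WT 3 the adjusted p was 0.0346. SLC25A26, which imports the methyl donor S-adenosylmethionine, averaged 4.21 ± 0.13 FPKM in KO and 3.72 ± 0.29 FPKM in WT and did not pass. Of its exonic bases 15.5% overlap LRIG1, a gene of the opposite strand expressed at 3.12 FPKM on average. SLC25A17, found in peroxisomes, had a log2 fold change of 0.04 without a call. SLC25A16 averaged 1.18 ± 0.18 FPKM in KO and 1.57 ± 0.08 FPKM in WT, with all KO libraries lower (limma adjusted p = 0.0834, and 0.0266 with limma-voom). Its log2 fold change was −0.24, and −0.02 with GC and length corrected (limma adjusted p = 0.865).
SLC25A32, a carrier linked to folate and flavin cofactors, had 23 reads over KO and 25 reads over WT. Of its exonic bases 69.7% are shared with AC012213.5 on the same strand and 11.1% overlap DCAF13 on the opposite strand, whose mean was 13.3 FPKM, so its low level is uncertain.

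SLC25A46 (ENSG00000164209, chromosome 5, positions 110738136 to 110765161), a member of the outer mitochondrial membrane that affects mitochondrial shape, had 5.99, 5.90 and 5.86 FPKM in KO, against 8.96, 9.62 and 8.16 FPKM in WT. The KO libraries were nearly equal and all below WT (log2 fold change −0.52, SE 0.07, limma adjusted p = 0.00129). After the GC and length correction the log2 fold change was −0.06 (adjusted p = 0.376). The 39 other tested genes within 10 Mb of SLC25A46 had a median log2 fold change of −0.20, and of −0.01 with the correction. The SLC25A46 promoter is shown because it held the most matches among the carriers that fell (plus strand, chr5:110738757-110739056).
SLC25A46: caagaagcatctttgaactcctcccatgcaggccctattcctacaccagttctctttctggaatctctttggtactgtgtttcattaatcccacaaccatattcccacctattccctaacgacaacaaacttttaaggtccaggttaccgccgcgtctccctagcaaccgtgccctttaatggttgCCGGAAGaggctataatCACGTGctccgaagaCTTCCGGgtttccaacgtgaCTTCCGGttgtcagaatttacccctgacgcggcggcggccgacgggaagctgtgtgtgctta
The window held 1 E-box and 3 ETS cores, the first ETS core starting 64 bases before the RefSeq start. Of the others that fell, SLC25A24 held 1 ETS core, SLC25A36 held 1 E-box and SLC25A40 held 1 sterol element. Of those that rose, SLC25A13 held 1 E-box and SLC25A20 held 1 ETS core, while SLC25A6, SLC25A10 and SLC25A15 held none. Carriers without a call also held matches, SLC25A38 and SLC25A17 among them, and a link between motifs and direction was not tested. SLC25A43, averaged 7.11 ± 0.38 FPKM in KO and 7.56 ± 0.56 FPKM in WT and did not pass.

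**Figure D3:**
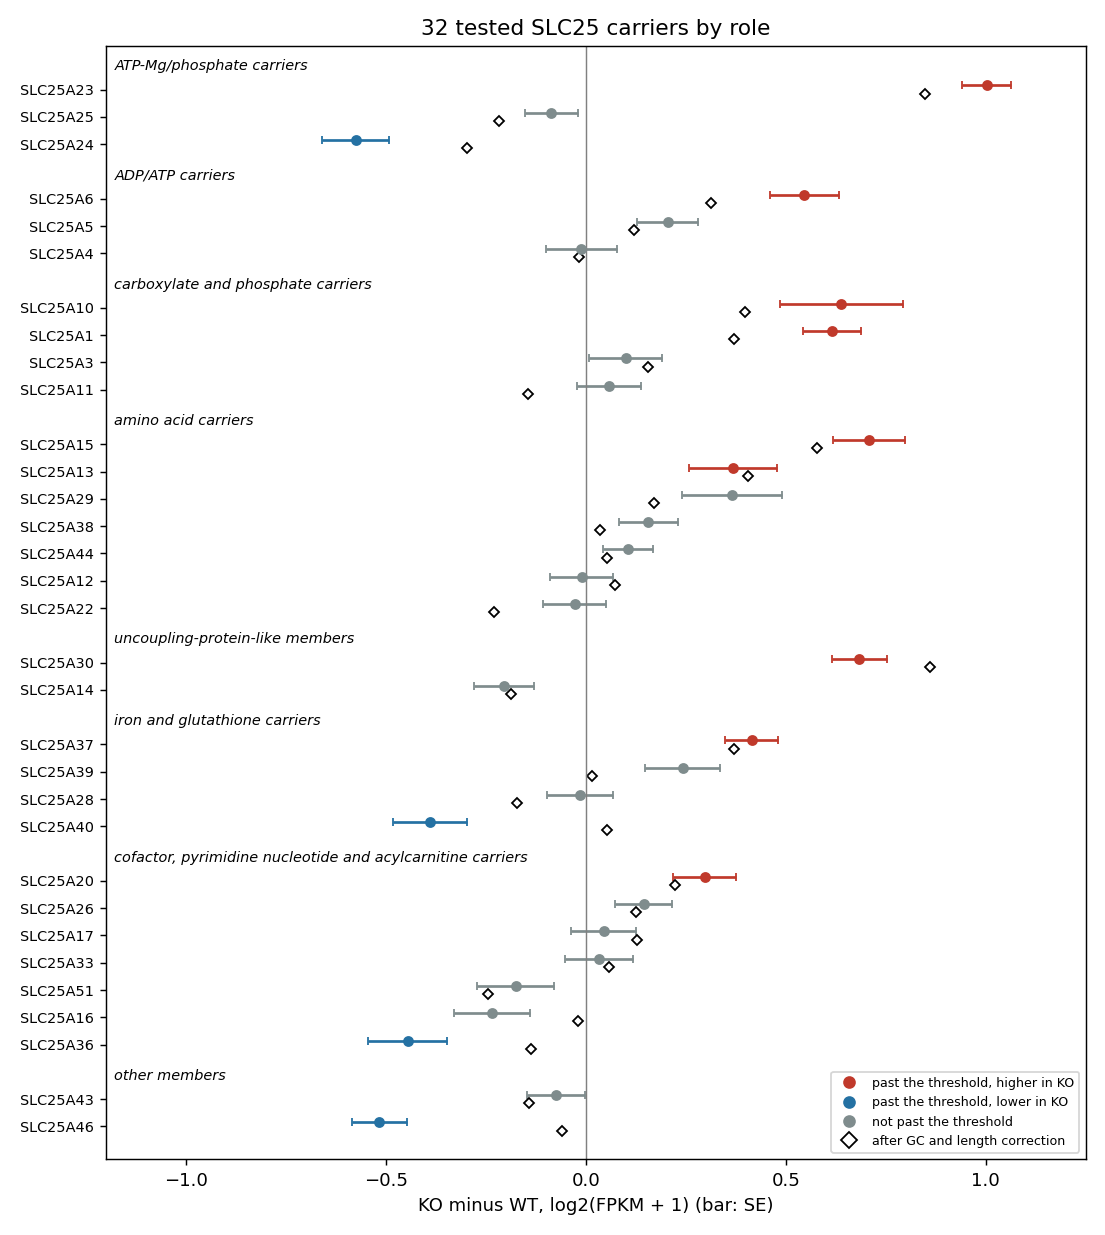
KO minus WT difference on the log2(FPKM + 1) scale for 32 tested SLC25 carriers, grouped by role, with the SE as a bar and the value after GC and length correction as an open diamond. SLC25A23 lies at 1.003 and SLC25A24 at −0.58, and the diamonds of SLC25A46 and SLC25A40 lie at −0.06 and 0.05.

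The carriers that rose and those that fell differed in base composition. The transcripts of the 9 that rose had a GC content of 42.2 to 66.2% (median 53.6%), and those of the 4 that fell had 36.0 to 40.0% (median 38.0%). The 20 that did not pass had 41.5 to 64.3% (median 50.3%), and all tested genes had a median of 49.1%. The 4 that fell were the 4 tested carriers of lowest GC content. After the GC and length correction 9 carriers were higher in KO and 6 lower, against 21.5% and 22.1% of all tested genes. All 9 that had risen were again called higher. Of the 4 that had fallen, SLC25A24 remained called (log2 fold change −0.30, limma adjusted p = 0.00409) and SLC25A36, SLC25A40 and SLC25A46 did not. The 5 that entered as lower were SLC25A11, SLC25A14, SLC25A22, SLC25A25 and SLC25A28.

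**Figure D4:**
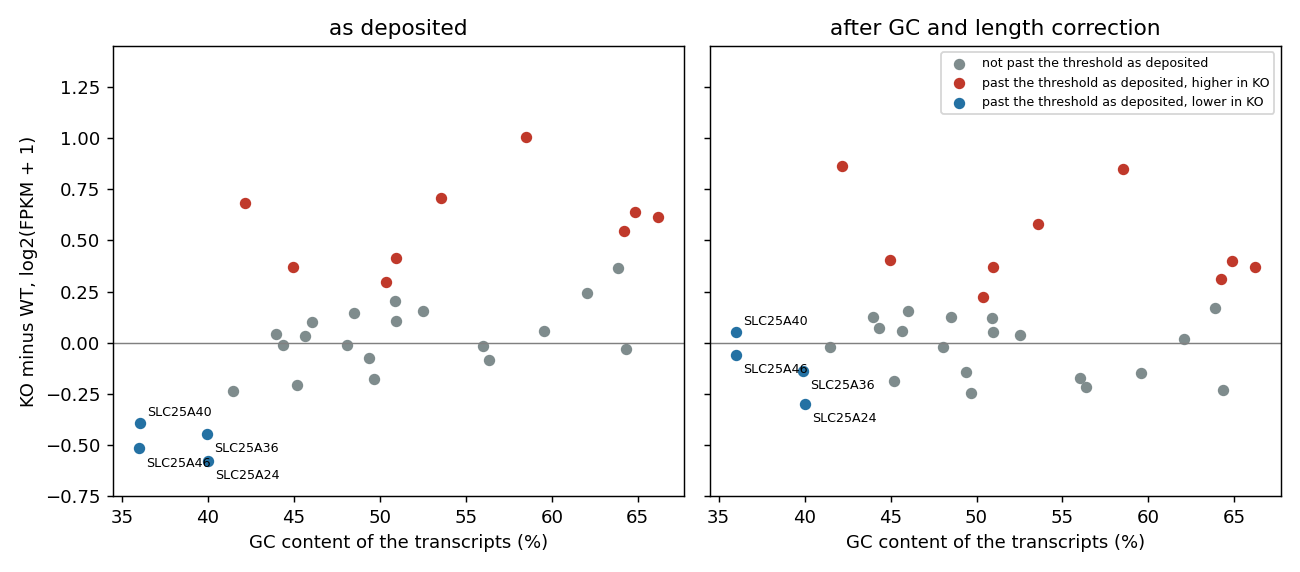
KO minus WT difference on the log2(FPKM + 1) scale against GC content for 32 tested carriers, as deposited (left) and after the GC and length correction (right), coloured by the call on deposited values. The 4 carriers that fell lie at 36.0 to 40.0% GC, and of these only SLC25A24, at −0.30 in the right panel, was called after the correction.

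The 15 carriers under the filter had means of 0 to 0.955 FPKM and were not tested. SLC25A35, just under it, had 96, 101 and 88 reads in KO and 30, 20 and 43 reads in WT, or 1.43 ± 0.07 FPKM in KO and 0.48 ± 0.18 FPKM in WT. Of its exonic bases 33.2% overlap RANGRF on the opposite strand. SLC25A42, a carrier of coenzyme A, had 28, 47 and 39 reads in KO and 10, 8 and 7 reads in WT. SLC25A48 had 34 reads over KO and 3 reads over WT. With no filter these 3 had limma adjusted p-values of 0.0129, 0.0167 and 0.0468. They are a selection of the 15, all higher in KO, and the share of all genes called in that fit is not given here. The groups also did not overlap for SLC25A18 and SLC25A41, with KO above WT, and for SLC25A34, with KO below WT. For SLC25A41 this rests on 12 reads over KO and 1 read over WT. The share of all genes under the filter without overlap is not given here, so these separations cannot be read as a trait of the carriers. SLC25A34, SLC25A45, SLC25A53, SLC25A52 and SLC25A47 had 44, 205, 229, 1 and 0 reads over KO and 59, 155, 232, 3 and 2 reads over WT. SLC25A51 and SLC25A52 are close copies, and reads may be shared between them.

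Summed over the 48 genes, the family reached 1226.6, 1252.3 and 1258.3 FPKM in KO and 977.4, 947.7 and 1058.6 FPKM in WT. Without the ADP/ATP carriers the sums were 499.7, 518.9 and 519.2 FPKM in KO and 421.5, 425.3 and 436.9 FPKM in WT. The family held 0.454 ± 0.002% of all FPKM in KO and 0.388 ± 0.021% in WT (SD, n = 3 each).

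Genes that work with the carriers were read from 4 lists. In the import machinery that brings carrier proteins through the outer membrane and inserts them into the inner one, 0 of 14 tested genes changed by limma, 0 had an unadjusted p under 0.05 and 0 were called by limma-voom (median log2 fold change 0.02). After the GC and length correction TOMM70 was called higher and TOMM40 lower. The counts of this and the next lists stand beside 21.0% higher and 22.4% lower over all tested genes (21.5% and 22.1% after the correction). Among other mitochondrial transport proteins 5 of 22 were higher and 1 was lower (median 0.12). SFXN3, a sideroflexin, averaged 20.7 ± 0.6 FPKM in KO and 15.0 ± 0.5 FPKM in WT (limma adjusted p = 0.0011). ABCB8 and SFXN2 also rose, to 6.97 and 2.74 FPKM in KO, against 5.15 and 1.98 FPKM in WT, and the log2 fold change of ABCB8 was 0.38 as deposited and 0.22 after the correction. ABCB10, an inner membrane transporter linked to heme synthesis, fell to 7.34 ± 0.74 FPKM in KO, against 10.6 ± 0.8 FPKM in WT. MTCH1 and MTCH2, outer membrane relatives of the family, had log2 fold changes of 0.10 and 0.14 and did not pass, and that of MTCH1 turned to −0.09 after the correction.
Of 30 enzymes that use substrates of the carriers, 12 were higher, 7 lower and 11 did not pass (median 0.17), with 13 higher and 6 lower after the correction. CRAT, carnitine acetyltransferase, averaged 10.8 ± 0.9 FPKM in KO and 5.56 ± 0.69 FPKM in WT (limma adjusted p = 0.000654), and ARG2, the mitochondrial arginase that makes ornithine, 5.90 ± 0.25 FPKM in KO and 3.27 ± 0.24 FPKM in WT. MTHFD2, of the mitochondrial folate pathway, averaged 29.5 ± 1.5 FPKM in KO and 47.1 ± 2.9 FPKM in WT, and GPD2, the glycerol phosphate shuttle enzyme, 9.10 ± 0.37 FPKM in KO and 13.7 ± 0.7 FPKM in WT. Of 14 tested regulators of mitochondrial genes, 2 were higher, 7 lower and 5 did not pass (median −0.20), with 2 higher and 5 lower after the correction. MYC fell to 9.42 ± 0.01 FPKM in KO, against 27.1 ± 2.3 FPKM in WT (limma adjusted p = 2.5e-05). TFAM, which packages mitochondrial DNA, fell to 18.1 ± 0.4 FPKM in KO, against 24.9 ± 2.7 FPKM in WT. Its log2 fold change was −0.43, and −0.13 with GC and length corrected (limma adjusted p = 0.0432). ATF4 fell to 122.5 ± 1.4 FPKM in KO, against 150.0 ± 1.2 FPKM in WT, and GABPB1 to 3.54 ± 0.17 FPKM in KO, against 4.65 ± 0.10 FPKM in WT. The correction moved the log2 fold change of ATF4 to −0.44 (−0.29 as deposited), and GABPB1 lost its call (log2 fold change −0.16, limma adjusted p = 0.0948).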

How the data were processed

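Messenger RNA libraries of 3 KO and 3 WT samples were compared. The authors deposited 1 table of FPKM values per gene and library. Per the labels' protocols RNA came from a Qiagen column kit and libraries from a SMARTER mRNA-Seq kit; which aligner, counter and strand setting were used is not given in the sources used here. GRCm38 and mm10 stand in the submitters' processing notes, but identifiers, starts, ends and strands of 58735 of 58735 genes equal human GENCODE release 29, so positions are on GRCh38. FPKM times gene length stepped in whole reads: 100.0% of values above 0 lay within 0.02 of a whole read, and 1 read in a gene of 1 kb was worth 0.0581 to 0.0602 FPKM.

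Values were used as deposited. limma 3.58.1 in R 4.3.3 (lmFit, eBayes with trend) was fitted on log2(FPKM + 1) for genes with a mean of at least 1 FPKM, genotype as the only term. Fold changes on this scale understate changes of low genes. The GC and length correction subtracted, per library, loess trends (span 0.3) of the deviation from the gene mean, with GC pooled over GENCODE transcripts. Limma-voom on recovered reads was chosen after seeing the data. Members, roles and lists were chosen with earlier results of these data known. 1 tested carrier is counted but not reported here by itself; library values are given for called carriers and for fixed ones, the rest as means or reads, and from each list up to 4 called genes with the smallest adjusted p. The fit was tested on simulated reads without a GC trend, so that test cannot speak to calls that follow the trend. Promoters are from RefSeq (40 of 48 carriers matched); the protein sequences were not analysed here. No libraries of a genotype were duplicates: their reads differed beyond sampling noise, with 4.92 to 16.5 chi-square units per degree of freedom. No pairing by replicate number was seen, though so few libraries cannot exclude it: same-numbered libraries had correlations of deviations of −0.07, −0.18 and −0.35.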

Additional observations from a re-analysis of the deposited data

How the results depend on the processing

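Of the 13 called carriers, SLC25A1, SLC25A6, SLC25A15, SLC25A23, SLC25A24, SLC25A30 and SLC25A37 kept direction and call in each of up to 14 alternatives in which they were tested. SLC25A10, SLC25A13, SLC25A20, SLC25A36, SLC25A40 and SLC25A46 lost the call in at least 1. Besides the values given with the genes, SLC25A13 missed it with no filter (adjusted p = 0.0896) and SLC25A10 likewise (0.0524). With the replicate block as a term 7 carriers were higher and 3 lower, and SLC25A13 (adjusted p = 0.0538), SLC25A20 (0.0688) and SLC25A40 (0.0519) were lost. With the block and the GC and length correction together 7 were higher and 3 lower, and SLC25A10 (0.0605) was among those lost. Of the carriers called lower as deposited only SLC25A24 remained in that fit, and SLC25A22 and SLC25A25 entered as lower. Counts of carriers ran from 6 to 12 higher and 3 to 5 lower over fits without 1 library. Limma-voom called 12 and 5, beside 22.5% and 23.8% of all tested genes. For the block and leave-out fits the shares over all tested genes are not given here. Over all genes the filter at a mean of 5 FPKM gave 1639 higher and 1564 lower (2525 and 2682 in the reported fit) and medians of 0.10 for carriers and 0.0099 for all genes, with fewer genes tested. Leaving out 1 library, the medians ran from 0.054 to 0.12 and from −0.011 to 0.0027.

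Signs turned for SLC25A40, among those called lower, and for other carriers without a call, and the cause was not tested. With the GC and length correction, with or without the block, the log2 fold change was −0.15 for SLC25A11, 0.073 for SLC25A12 and 0.052 for SLC25A40. Under quantile normalization it was 0.0057 for SLC25A28, 0.018 for SLC25A4 and 0.019 for SLC25A12. Without 1 library it ran from −0.090 to 0.047 for SLC25A22, −0.025 to 0.11 for SLC25A17, −0.060 to 0.054 for SLC25A28, −0.088 to 0.073 for SLC25A4, −0.042 to 0.10 for SLC25A33 and −0.049 to 0.064 for SLC25A12. Import genes had 1 higher and 1 lower after the correction, with or without the block, and 0 to 1 higher without 1 library (1 without WT 3). Other transport genes had 3 higher with no filter, with the filter at 5 and with the replicate block, and 2 to 7 without 1 library (2 without KO 3 or WT 1, 3 without KO 1, KO 2 or WT 3). Enzymes had 7 higher with the replicate block and 7 to 12 without 1 library (7 without KO 2, KO 3 or WT 1), and 4 lower with no filter and 4 to 6 without 1 library (4 without KO 1 or KO 2). Regulators had 1 higher with a pseudocount of 0.1, the filter at 5, the replicate block, the block with the correction and without each library in turn, and 4 lower with the block and the correction. As TPM the family summed to 4545 in KO and 3879 in WT. edgeR and DESeq2 were not run, since the deposited values are FPKM. Depth limits the 15 carriers under the filter, which had at most 285 reads over KO (SLC25A35) and 232 over WT (SLC25A53).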

Other observations

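The table also holds 45 rows with SLC25A symbols that are not members, 40 of them pseudogenes and the others antisense or other noncoding genes. Of the pseudogenes 13 had at least 1 read. The 9 copies of SLC25A5 had 5 reads over KO and 2 reads over WT, beside 25515 and 21837 reads of SLC25A5 itself. The 6 copies of SLC25A6 had 2 reads over KO and 1 read over WT, and the 2 copies of SLC25A3 had 0 reads. How the authors' counting divided reads between a carrier and its copies was not analysed here. The pseudogene that reached the filter was SLC25A15P4, with 28 reads over KO and 16 reads over WT and overlapping groups.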
